A study of Homo sapiens with 8 samples.

Results

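Histone genes, replication-dependent and variant, were examined on 8 Affymetrix expression arrays of SK-MEL-5, a long-established line of human melanoma cells. The genes were taken by symbol: the clustered genes of the linker histone H1 and of the core histones H2A, H2B, H3 and H4, and the histone genes outside those clusters, such as H2AX, H2AZ1 and H3-3B. Of 18244 genes with a probe set of a single symbol, 72 were histone genes, 61 of them clustered and 11 outside the clusters. A further 2 symbols were histone pseudogenes, and together these genes had 133 of the 49495 probe sets. The arrays fell into 4 groups of 2. The first was cells given THZ1, a covalent inhibitor of the transcription kinase CDK7, at 250 nM for 6 h, with DMSO at 25 µM also recorded, and its control was cells given DMSO at 25 µM. The third was cells transfected with an siRNA against MITF (siMITF), the master transcription factor of melanocytes, and its control was cells with a control siRNA (siCtrl). The labels used here give no time for the DMSO or the siRNA groups. All arrays are of this 1 cell line, and whether a group's 2 arrays are separate cultures is not labelled. The p-values therefore cover only array-to-array spread, which may be technical.

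Histones package DNA into nucleosomes. The clustered genes are transcribed mainly in S phase, and most of their mRNAs end in a stem-loop bound by SLBP instead of a poly(A) tail, although some clustered genes are also known to give polyadenylated transcripts. Most genes outside the clusters encode variants, and many of these, such as H2A.Z and H3.3, are made through the cell cycle from polyadenylated mRNAs and replace the core histones at particular places. H2AX is known to give both a stem-loop and a polyadenylated mRNA. Per the labels' protocols, RNA was labelled from oligo(dT) primers, so the signal of a clustered gene reports the transcripts that this priming reached. Histone genes of 1 family are close in sequence, and of the 26 probe sets behind the histone tests 7 are of the _x_at type and 9 of the _s_at type, which may bind transcripts of close relatives.

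The promoters of the genes the results turn on are given here so that the motifs they hold can be set beside the changes below. Each is the 250 bases before the annotated start, 5′ to 3′ on the gene's strand, from RefSeq's promoter table for GRCh38.p14. Capitals mark each match on either strand to the octamer ATTTGCAT known from H2B promoters, to the CCAAT box, to the TATA box written as TATAAA, and to the E-box letters CACGTG or to CATGTG, which MITF is known to bind. Overlapping matches run together. H2BC5, an H2B gene, H3C4, an H3 gene, and H2AC11, an H2A gene, had the largest rises with siMITF relative to the median gene.
H2BC5, chr6:26157871-26158120, plus strand: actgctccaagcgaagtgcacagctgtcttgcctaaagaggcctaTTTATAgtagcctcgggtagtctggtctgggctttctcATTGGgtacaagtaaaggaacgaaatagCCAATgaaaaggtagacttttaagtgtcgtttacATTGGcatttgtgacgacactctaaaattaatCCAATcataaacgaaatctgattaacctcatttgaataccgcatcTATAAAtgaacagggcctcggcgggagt
H3C4, chr6:26199294-26199543, minus strand: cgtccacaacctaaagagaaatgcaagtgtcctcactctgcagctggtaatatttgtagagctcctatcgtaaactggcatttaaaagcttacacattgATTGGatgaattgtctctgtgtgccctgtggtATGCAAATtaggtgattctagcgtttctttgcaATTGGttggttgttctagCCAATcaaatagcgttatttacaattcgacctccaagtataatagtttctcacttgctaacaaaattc
H2AC11, chr6:27132793-27133042, plus strand: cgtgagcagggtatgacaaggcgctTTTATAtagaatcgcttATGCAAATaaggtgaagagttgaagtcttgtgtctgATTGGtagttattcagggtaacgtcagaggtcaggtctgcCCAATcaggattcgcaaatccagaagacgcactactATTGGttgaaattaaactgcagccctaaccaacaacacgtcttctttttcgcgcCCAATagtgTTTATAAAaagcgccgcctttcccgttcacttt

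H2AX, whose protein is phosphorylated at DNA breaks, had the largest relative fall with siMITF, and H2AZ2, 1 of the genes of the variant H2A.Z, also fell with siMITF on that scale.
H2AX, chr11:119095466-119095715, minus strand: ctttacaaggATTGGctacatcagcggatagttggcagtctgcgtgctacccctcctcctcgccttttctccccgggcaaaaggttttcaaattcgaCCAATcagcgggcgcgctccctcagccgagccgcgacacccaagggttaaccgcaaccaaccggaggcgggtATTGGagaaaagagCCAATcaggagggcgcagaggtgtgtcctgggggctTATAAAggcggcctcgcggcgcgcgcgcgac
H2AZ2, chr7:44848088-44848337, minus strand: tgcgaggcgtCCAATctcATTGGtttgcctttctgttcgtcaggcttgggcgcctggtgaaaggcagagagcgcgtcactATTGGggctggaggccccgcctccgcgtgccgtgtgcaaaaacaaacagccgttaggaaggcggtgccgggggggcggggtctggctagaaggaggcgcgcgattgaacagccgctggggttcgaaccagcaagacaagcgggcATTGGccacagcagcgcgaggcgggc

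H2BC21 and H2AC20 lie head to head on opposite strands, and their RefSeq windows, which also take in the first 50 bases of each gene, share 265 bases. On the relative scale H2BC21 rose with siMITF and H2AC20 fell, a fall seen in 1 of the 2 probe sets of H2AC20.
H2BC21, chr1:149886683-149886932, minus strand: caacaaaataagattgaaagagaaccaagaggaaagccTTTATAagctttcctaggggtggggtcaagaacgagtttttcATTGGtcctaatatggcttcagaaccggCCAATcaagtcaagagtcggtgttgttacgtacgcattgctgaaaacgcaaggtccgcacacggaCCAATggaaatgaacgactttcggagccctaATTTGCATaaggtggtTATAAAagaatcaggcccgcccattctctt
H2AC20, chr1:149886668-149886917, plus strand: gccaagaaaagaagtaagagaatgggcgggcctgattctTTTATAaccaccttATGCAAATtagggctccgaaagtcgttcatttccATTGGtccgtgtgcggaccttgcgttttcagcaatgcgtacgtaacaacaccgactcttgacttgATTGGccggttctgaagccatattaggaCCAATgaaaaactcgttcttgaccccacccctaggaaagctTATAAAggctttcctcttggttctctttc

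A promoter was listed for 67 of the 74 histone genes and pseudogenes. The octamer was found in 14 of 18 clustered H2B promoters and 11 of 14 clustered H2A promoters, against 1.66% of 27305 promoters of the same length. Many of these H2A and H2B windows overlap on opposite strands. A single octamer can thus be counted for both genes of a pair, as with H2BC21 and H2AC20. It was found in 1 of 8 clustered H3 promoters, that of H3C4, and in 0 of 6 clustered H1 and 0 of 10 clustered H4 promoters. The window listed for H3C4 is the same 300 bases, on the same strand, as that listed for H2AC7, an H2A gene. CCAAT was found in 57 of the 67 histone promoters and in 33% of all promoters, and TATAAA in 40 of the 67 and in 11.1% of all. CACGTG, in 6.49% of all promoters, and CATGTG, in 9.54%, were found in 0 of the 67, which says only that these letters are not in these windows.

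The authors' signals are normalized for the number of cells, and most genes of an array were shifted together. Every change is thus given on 2 scales, both of log2(signal + 16): the deposited scale, which keeps the signals as they are, and the relative scale, which subtracts each array's offset so that a change is set against the median gene. A gene was read from its brightest probe set and tested where its mean log2(signal + 16) over the 8 arrays was at least 5.79, which corresponds to a signal of 39.2. This left 26 histone genes, 19 clustered and 7 outside the clusters, among 11946 tested genes, and 46 histone genes were below the filter. A change was called at a limma adjusted p under 0.05 over all 11946 genes, and "rose" and "fell" are used of called changes only. The median signal of an array was 51.1 and 67.6 with THZ1, against 61.3 and 76.1 with DMSO, and 40.1 and 32.5 with siMITF, against 51.1 and 59.3 with siCtrl. The targeted gene, MITF, read 1747 and 1168 in the siMITF group, against 3436 and 3936 in the siCtrl group. All 7 melanocyte lineage markers with a probe set passed the filter, as did 1 of 4 keratinocyte, 3 of 6 fibroblast and 1 of 5 leukocyte markers. KRT5, KRT14, COL1A1 and PTPRC, which define those other cell types, were below it, while the fibroblast marker LUM had signals of 613 to 2983. The summed fibroblast markers read 734 to 976 with siMITF, against 1544 to 1866 with siCtrl, and 2660 to 3447 with THZ1, against 2370 to 2863 with DMSO. Most of each sum was LUM, which read 810 and 613 with siMITF, against 1354 and 1639 with siCtrl. The part of such cells or transcripts in the histone signals was not tested.

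With siMITF, several clustered histone genes had more signal on arrays where most genes had less. In RNA from whole cultures, fewer cells with a transcript and less of it per cell cannot be told apart. Both siMITF arrays lay above both siCtrl arrays in deposited signal for 6 of the 26 tested histone genes, all clustered: H2BC5, H3C4, H2AC11, H2AC6, H2BC21 and H4C8. Over all tested genes this held for 0.929%, and the reverse, both siMITF arrays below both siCtrl arrays, held for 15 of the 26 histone genes and 89% of all genes. By the test on the deposited scale 2 histone genes, H2BC5 and H3C4, rose, beside 0.326% of all tested genes, and 13 fell, beside 63.4% of all. The median log2 change on this scale was -0.51 over the 26 histone genes and -0.63 over all tested genes. Without siCtrl replicate 2, or without siMITF replicate 2, fewer histone genes were called on the deposited scale. The share called over all tested genes in those fits is not given here. With each gene's own variance in place of limma's shared one it called 0, with 13 at an unadjusted p under 0.05.

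H2BC5 encodes an H2B protein, a core part of the nucleosome. It read 760 and 578 on the siMITF arrays, against 252 and 314 on the siCtrl arrays. The lower siMITF array was thus well above the higher siCtrl array. Its log2 change was 1.19 on the deposited scale, or 2.28-fold (SE 0.25, n = 2 per group, limma adjusted p = 2.14e-05), and 1.82 on the relative scale (SE 0.07, limma adjusted p = 9.77e-07). Its 2 other probe sets had relative log2 changes of 1.11 and 1.59.

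H3C4, a gene of the core histone H3, had a signal of 149 and 122 with siMITF, against 65.5 and 78.6 with siCtrl. The groups did not overlap, and its log2 change was 0.78 on the deposited scale, or 1.72-fold (SE 0.25, limma adjusted p = 0.00439), and 1.41 on the relative scale (SE 0.08, limma adjusted p = 4.35e-06). The deposited call was lost without siCtrl replicate 1 (limma adjusted p = 0.0522) or siMITF replicate 1 (limma adjusted p = 0.0545). H3C4 has 1 probe set.

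**Figure D1:**
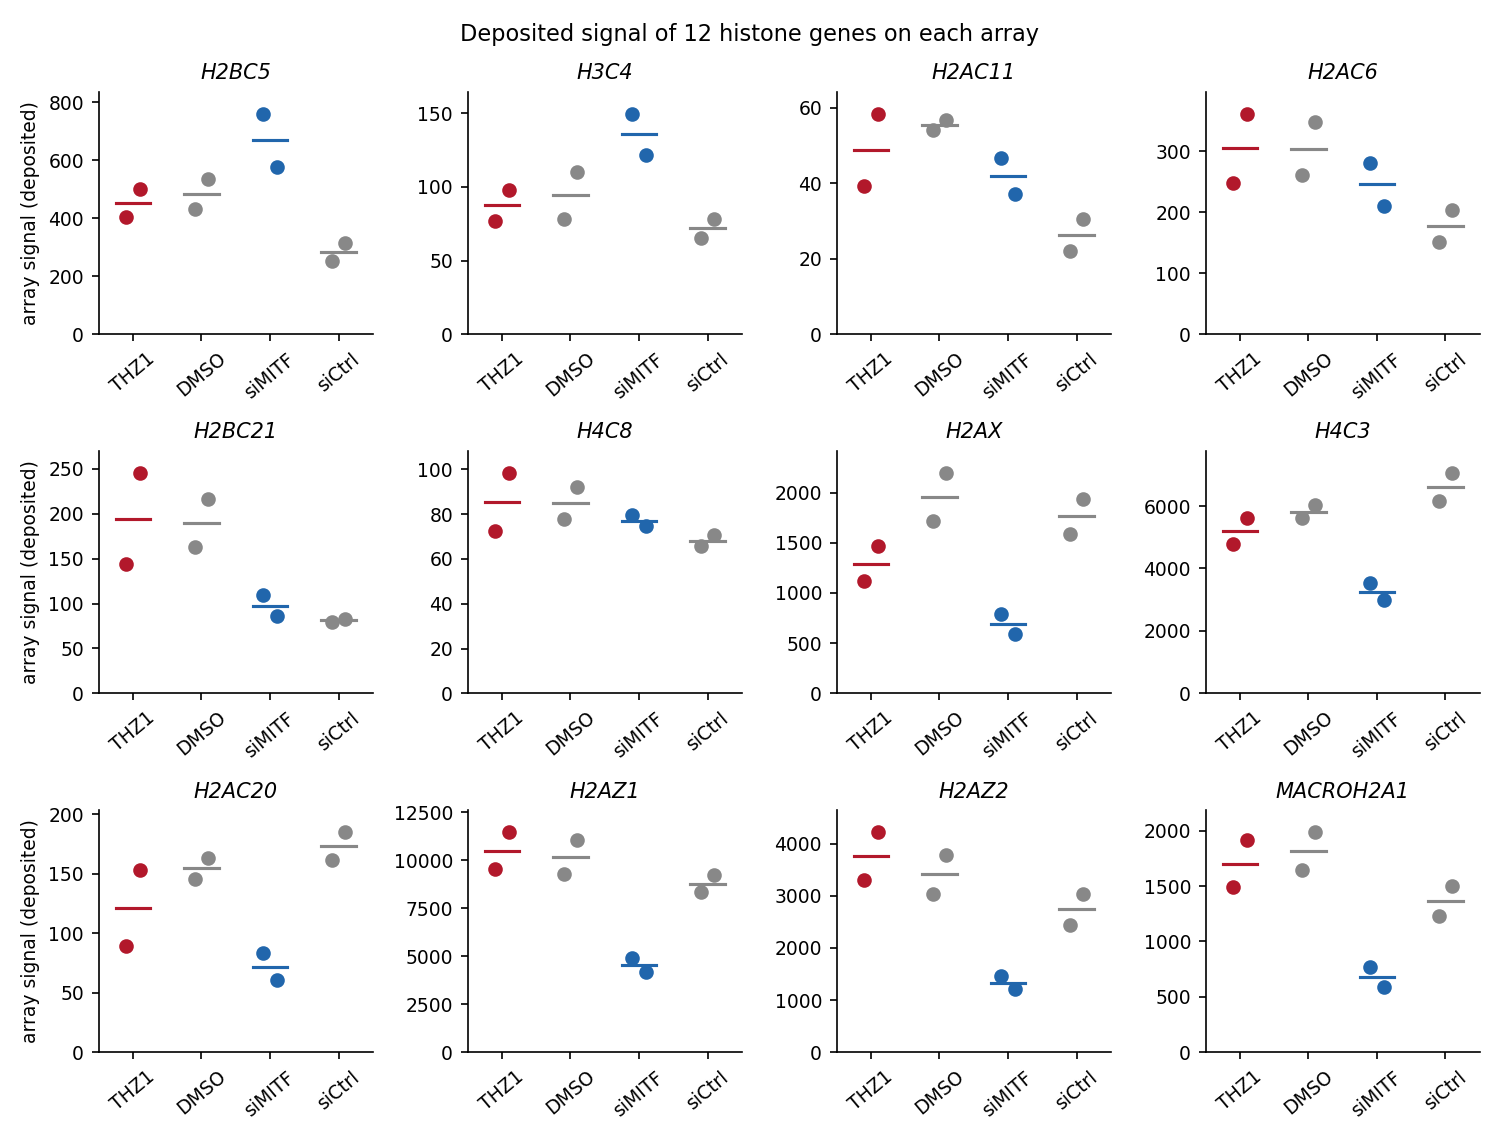
Deposited array signal (linear axis from 0) of 12 histone genes on each array, with THZ1, DMSO, siMITF and siCtrl from left to right; points are single arrays and bars are group means. The siMITF arrays of H2BC5, at 760 and 578, lie above the siCtrl arrays, at 252 and 314, while those of H2AX, at 795 and 595, lie below the siCtrl arrays, at 1592 and 1935.

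Relative to the median gene, 10 of the 26 histone genes rose with siMITF, beside 19.5% of all tested genes, and 6 fell, beside 24.7% of all. All 10 that rose were clustered, as were 2 of the 6 that fell, so that among 19 clustered genes 10 rose and 2 fell, and among 7 genes outside the clusters 0 rose and 4 fell. The median relative log2 change was 0.32 over the clustered genes and -0.32 over those outside, against 0.0014 over all tested genes. The classes also differ in signal. H2AX, H2AZ1, H2AZ2, H3-3B and MACROH2A1 lie in the brightest quintile of tested genes, where the median over all genes was -0.21, as do the clustered H2BC12 and H4C3. In the dimmest quintile, with a median of 0.21, all histone genes but H1-8 are clustered. The part of signal level in this contrast was not tested. By family, 4 of 6 clustered H2B genes rose and 0 fell, 2 of 4 H2A genes rose and 1 fell, 2 of 4 H4 genes rose and 1 fell, 1 of 3 H3 genes rose, and 1 of 2 H1 genes rose. Of the 10 genes that rose, all clustered, 6 have the octamer in the promoter window, beside 26 of 56 clustered promoters. These 6 include H3C4, whose listed window is that of H2AC7. Of the 6 that fell, 5 of which have a listed promoter, 1 has it, and of 10 tested genes not called 2 have it. These counts are not all of separate sites. H2BC21, which rose, shares most of its window with H2AC20, which fell, and H2AC11, which rose, with H2BC11, not called. The part of the octamer, apart from family and cluster, was not tested.

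H2AC11, an H2A gene, had a signal of 46.7 and 37.3 with siMITF, against 22.0 and 30.6 with siCtrl, and a relative log2 change of 1.09 (SE 0.09, limma adjusted p = 2.73e-05). H2AC6, another H2A gene, had a signal of 281 and 211 with siMITF, against 151 and 204 with siCtrl, and a relative log2 change of 1.07 (SE 0.08, limma adjusted p = 2.43e-05). In both genes the siMITF arrays were the higher ones, and the lower of them stood close above the higher siCtrl array. The other probe set of H2AC11, below the filter, read 25.7 and 19.99 on the siMITF arrays, against 26.9 and 28.2 on the siCtrl arrays, so there the siMITF arrays were the lower ones, and its relative change was 0.46. By their brightest probe sets, neither gene was called on the deposited scale, with log2 changes of 0.46 for H2AC11 (limma adjusted p = 0.0854) and 0.44 for H2AC6 (limma adjusted p = 0.101).

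The H2B gene H2BC21 had a signal of 109 and 86.4 with siMITF, against 78.9 and 83.3 with siCtrl, and rose by a relative log2 change of 0.85 (SE 0.11, limma adjusted p = 2.22e-04). The H4 gene H4C8 had 79.4 and 74.7 with siMITF, against 65.7 and 70.7 with siCtrl, and rose by 0.78 (SE 0.09, limma adjusted p = 1.68e-04). In both genes the groups were close without overlapping in deposited signal, and the deposited log2 changes of 0.22 and 0.14 were not called (limma adjusted p = 0.395 and 0.579). The 2 other probe sets of H2BC21, below the filter and equal in value, read 16.6 and 16.4 with siMITF, against 26.5 and 21.3 with siCtrl. There the siMITF arrays were the lower ones, with a deposited change of -0.29 and a relative change of 0.34.

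H1-2, a linker histone that binds where DNA enters the nucleosome, had a signal of 408 and 330 with siMITF, against 356 and 398 with siCtrl. H2BC12, an H2B gene, had 1930 and 1502 with siMITF, against 1571 and 2077 with siCtrl. Their deposited signals overlapped between the groups, with log2 changes of -0.04 for H1-2 and -0.08 for H2BC12. On the relative scale H1-2 rose by 0.60 (limma adjusted p = 2.64e-04) and H2BC12 by 0.55 (limma adjusted p = 6.41e-04). The remaining genes that rose on this scale, named after their values were seen, were H4C5, by 0.46 (limma adjusted p = 0.0184), and H2BC6, by 0.32 (limma adjusted p = 0.0127). Both had negative deposited changes, of -0.18 and -0.31, that were not called.

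**Figure D2:**
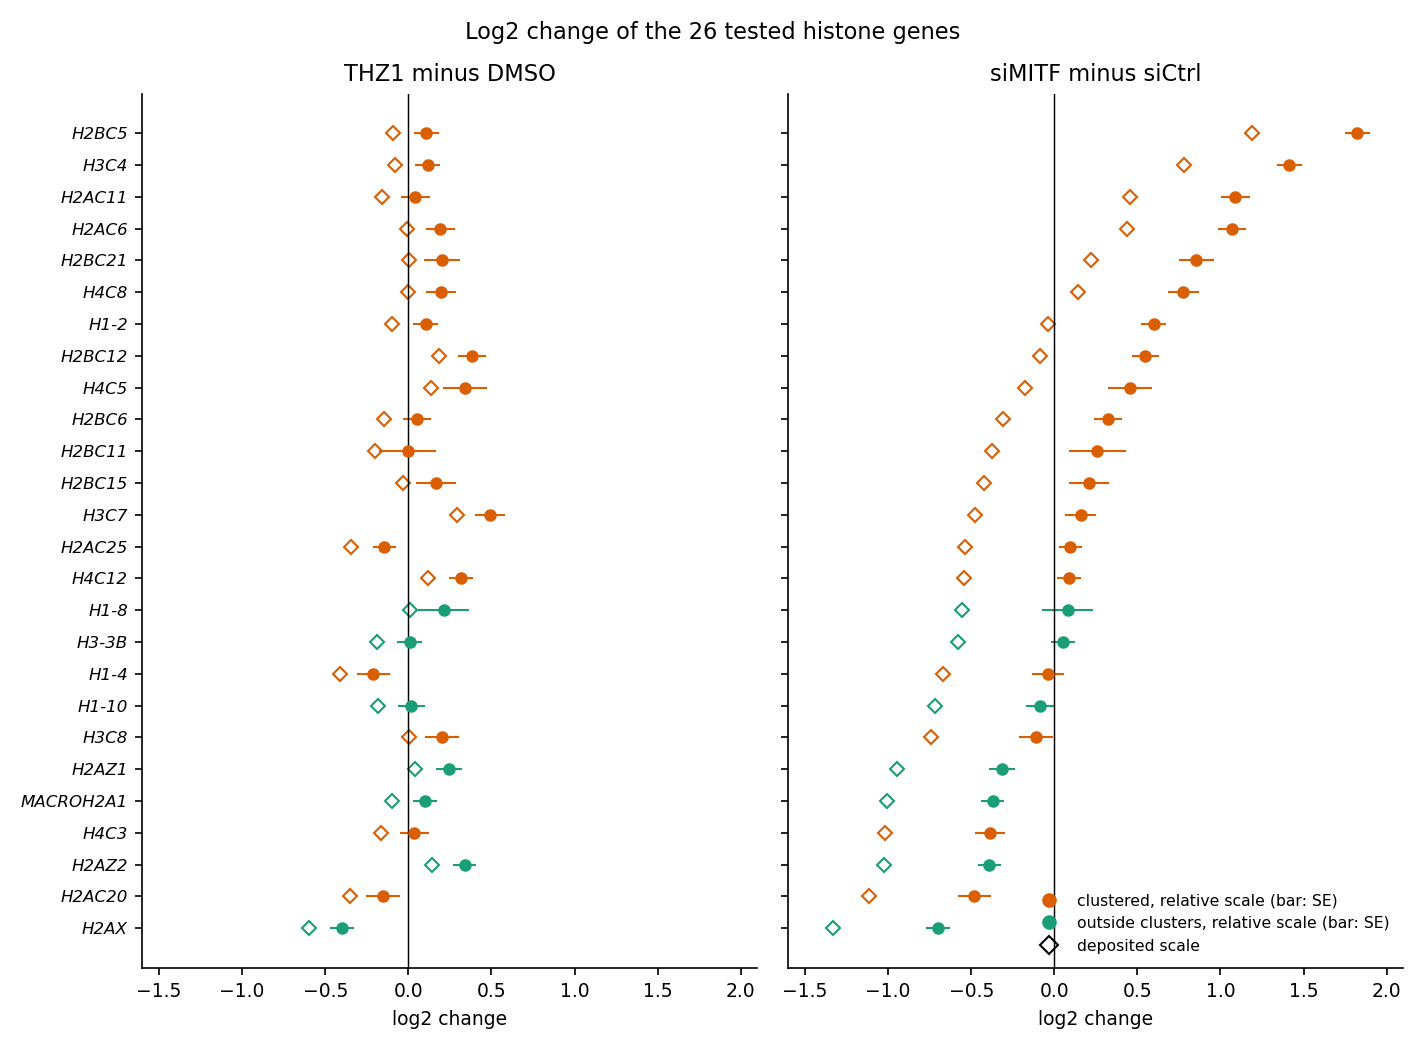
Log2 change of the 26 tested histone genes for THZ1 minus DMSO (left) and siMITF minus siCtrl (right), with filled circles and SE bars on the relative scale and open diamonds on the deposited scale; orange genes are clustered and green genes lie outside the clusters. With siMITF the relative changes run from -0.70 for H2AX to 1.82 for H2BC5, and all 7 genes outside the clusters have deposited changes below 0.

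The 7 tested histone genes outside the clusters had less signal with siMITF. All 7 fell on the deposited scale, beside 63.4% of all tested genes falling, with a median log2 change of -0.95. Relative to the median gene 4 of the 7 fell: H2AX, H2AZ1, H2AZ2 and MACROH2A1.

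H2AX had a signal of 795 and 595 with siMITF, against 1592 and 1935 with siCtrl. Both siMITF arrays lay far below the siCtrl arrays, with a log2 change of -1.33 on the deposited scale (SE 0.25, limma adjusted p = 2.28e-06) and -0.70 on the relative scale (SE 0.07, limma adjusted p = 9.11e-05). It has 1 probe set with a single symbol.

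H2AZ1 and H2AZ2 encode the forms of H2A.Z, a variant found around transcription start sites. H2AZ1 had 4936 and 4174 with siMITF, against 8331 and 9240 with siCtrl, and H2AZ2 had 1455 and 1218 with siMITF, against 2443 and 3036 with siCtrl. The siMITF arrays were the lower ones in both genes, with no overlap. The relative log2 change was -0.32 for H2AZ1 (limma adjusted p = 0.00868) and -0.39 for H2AZ2 (limma adjusted p = 0.00157), and the 3 other probe sets of H2AZ1 and the 4 others of H2AZ2 had the same sign. The relative call of H2AZ1 was lost without siCtrl replicate 1 (limma adjusted p = 0.0541) or siMITF replicate 1 (limma adjusted p = 0.05002).

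MACROH2A1, which encodes the large variant macroH2A, had 769 and 586 with siMITF, against 1234 and 1503 with siCtrl. Its log2 change was -1.004 on the deposited scale (limma adjusted p = 3.18e-04) and -0.37 on the relative scale (limma adjusted p = 0.00251). The groups did not overlap, and its 2 other probe sets had the same sign. Without siMITF replicate 2 the deposited call was lost (limma adjusted p = 0.0525), and after quantile normalization the change was -0.13 and not called (limma adjusted p = 0.0977).

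H3-3B encodes H3.3, the variant deposited outside replication. It had 4074 and 3547 with siMITF, against 5266 and 6162 with siCtrl, and fell by 0.58 on the deposited scale (limma adjusted p = 0.0315). Its relative log2 change was 0.05 (limma adjusted p = 0.598), while its 3 other probe sets had relative changes of -0.20, -0.35 and -0.45, so the probe sets disagree in sign. H1-10, a linker histone variant, had 251 and 182 with siMITF, against 320 and 409 with siCtrl. It fell by 0.72 on the deposited scale (limma adjusted p = 0.0086), a change that was 0.15 and not called after quantile normalization. Its relative change of -0.09 was not called (limma adjusted p = 0.414). The other probe set of H1-10 had a relative change of 0.14, so its probe sets also disagree in sign. Without _x_at and _s_at probe sets the deposited call of H1-10 was lost (-0.49, limma adjusted p = 0.0645). The deposited calls of H3-3B and H1-10 were lost without siCtrl replicate 2 (limma adjusted p = 0.237 and 0.176) or siMITF replicate 2 (limma adjusted p = 0.226 and 0.21).

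Among clustered genes, H4C3, an H4 gene, and H2AC20, an H2A gene, fell on both scales with siMITF. H4C3 had 3534 and 2983 with siMITF, against 6162 and 7057 with siCtrl. Its relative log2 change was -0.39 (limma adjusted p = 0.00655), and -0.50 in its other probe set. H2AC20 had 83.5 and 60.6 with siMITF, against 161 and 185 with siCtrl, and its relative log2 change was -0.48 (limma adjusted p = 0.00409). The siMITF arrays were the lower ones in both genes. The other probe set of H2AC20, below the filter with a mean signal of 18.3, had a relative change of 0.62, and the mean of both probe sets gave 0.03, so the opposite directions of H2AC20 and H2BC21 rest on 1 probe set of H2AC20.

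The relative change depended on the signal level over all genes. With siMITF its median was 0.43 over genes below the filter, 0.21 over the dimmest quintile of tested genes and -0.21 over the brightest. Of the 26 histone genes 8 lay above the 90th percentile of all genes in their own signal quintile, and these were the 8 with the largest rises, from H2BC5 to H2BC12. Below the 10th percentile of their quintile lay H2AX, H2AC20 and H1-4, and the other 15 lay between. H4C5 and H2BC6 among the genes that rose, and H2AZ1, H2AZ2, MACROH2A1 and H4C3 among those that fell, were thus within the range of genes of like signal. The 46 histone genes below the filter had a median relative change of 0.45, beside 0.43 over all such genes. The part of signal level in the called changes was not tested.

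**Figure D3:**
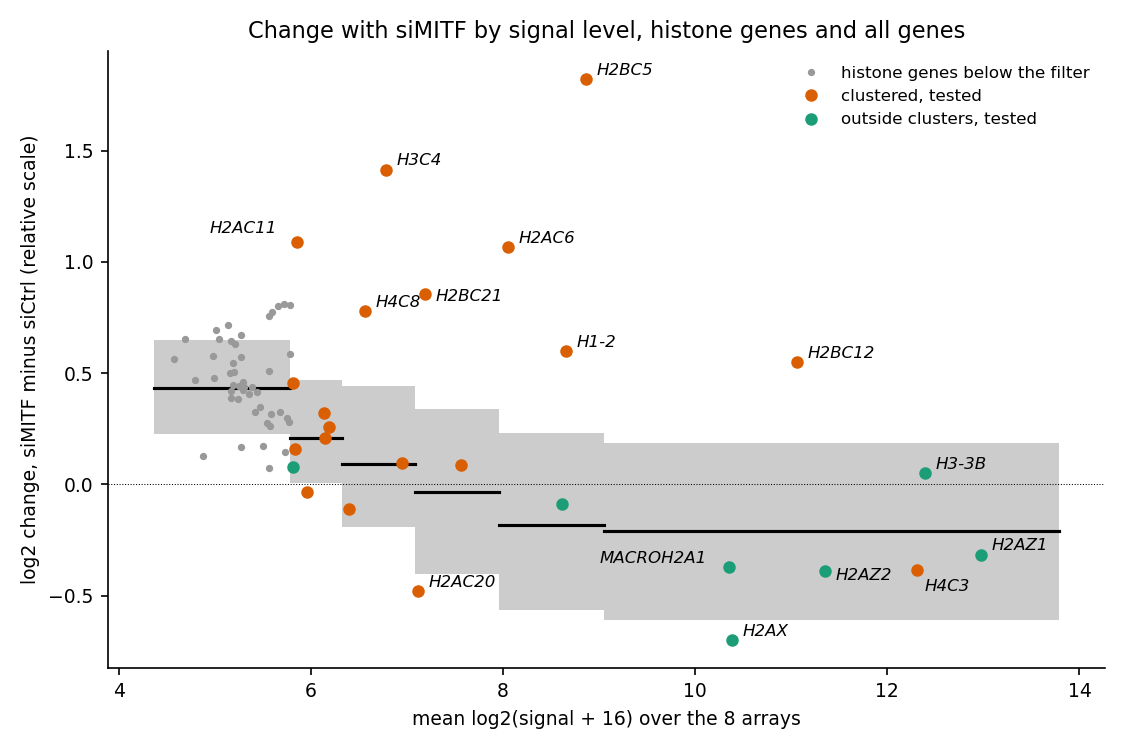
Relative log2 change, siMITF minus siCtrl, against the mean log2(signal + 16) of each histone gene; orange and green points are tested clustered genes and tested genes outside the clusters, and small grey points are histone genes below the filter. Black lines are medians of all genes in a signal bin and grey boxes run from the 10th to the 90th percentile; H2BC5, at 1.82, and 7 other clustered genes stand above their box.

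In chromosomal order along the large histone cluster on chromosome 6, taken from the RefSeq gene table, genes that rose stood beside genes that did not. Of 54 genes with a probe set of a single symbol there, 16 were tested, 9 rose and 1, H4C3, fell on the relative scale. H1-2 (0.60) and H4C3 (-0.39) follow each other among genes with such a probe set, as do H2AC6 (1.07), H1-4 (-0.04), H2BC5 (1.82) and H2BC6 (0.32). H2AC11 (1.09) shares 253 bases of its window with H2BC11 (0.26, not called) on the opposite strand.

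**Figure D4:**
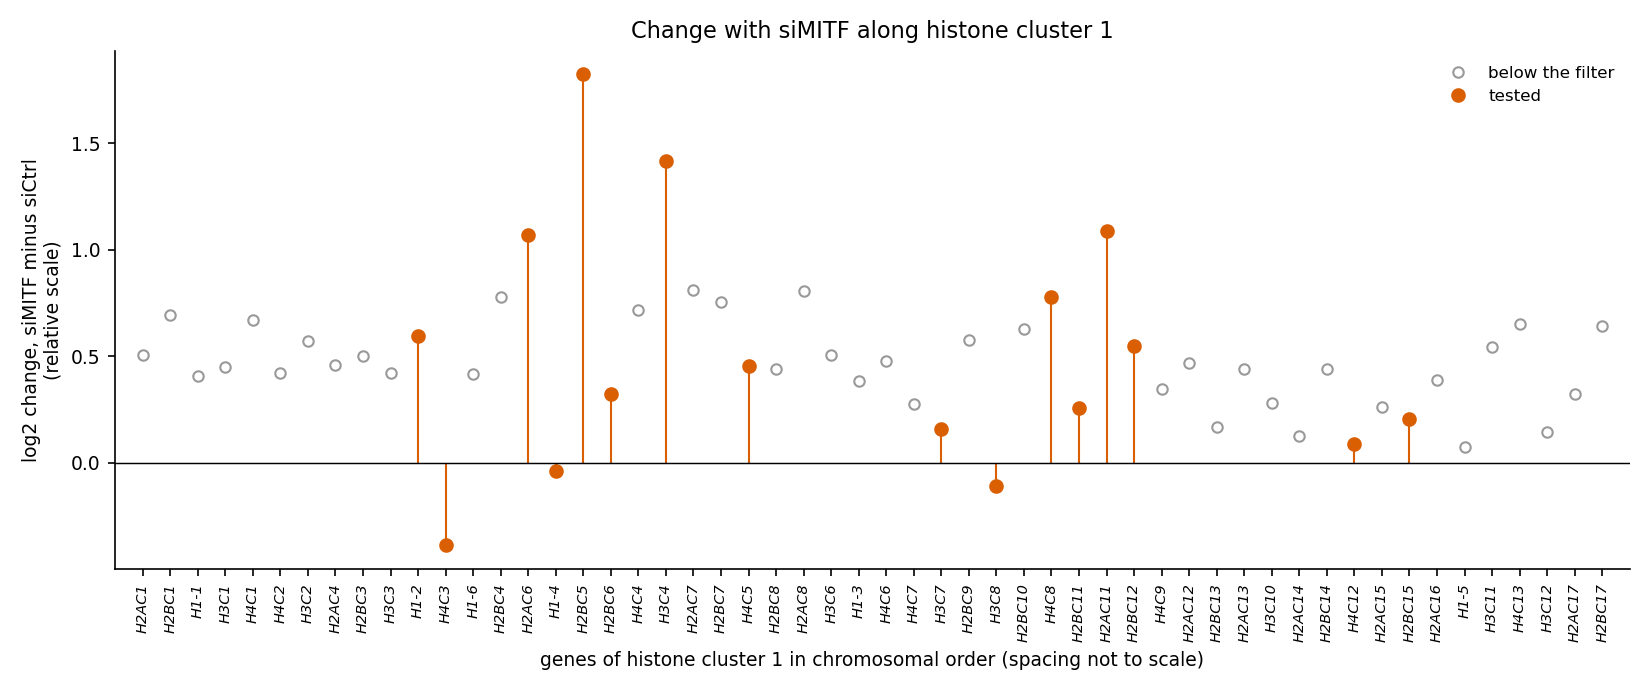
Relative log2 change, siMITF minus siCtrl, of each gene of the chromosome 6 histone cluster in chromosomal order, with spacing not to scale; filled points with stems were tested and open points were below the filter. Of the 16 tested genes 13 lie above 0, beside a median of 0.0014 over all tested genes. All 38 genes below the filter lie above 0 too. The 10th percentile was itself above 0 over all genes below the filter (0.23) and over the dimmest quintile of tested genes (0.0041).

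With THZ1, no histone gene passed the test on the deposited scale, and 6 did relative to the median gene. Limma called 0 of the 26 on the deposited scale, beside 10.1% of all tested genes, with 1 at an unadjusted p under 0.05. With each gene's own variance 0 of the 26 had an unadjusted p under 0.05, and 0 of all tested genes were called. Log2 changes ran from -0.60 for H2AX to 0.29 for H3C7, with a median of -0.09, beside -0.16 over all tested genes. Both THZ1 arrays lay above both DMSO arrays in deposited signal for H3C7 and H4C5, beside 0.871% of all genes, and below them for H2AX and H1-4, beside 30% of all. On the relative scale 5 histone genes rose, beside 17.7% of all tested genes, and 1 fell, beside 21.1% of all.

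H2AX had a signal of 1115 and 1464 with THZ1, against 1722 and 2194 with DMSO. The THZ1 arrays were the lower ones. Its log2 change was -0.60 on the deposited scale (SE 0.25, limma adjusted p = 0.109) and -0.40 on the relative scale (SE 0.07, limma adjusted p = 0.00231). Without THZ1 replicate 2 the deposited change was called as well (limma adjusted p = 0.0261). The pseudogene H1-9P, counted apart from the histone genes, had 71.5 and 103 with THZ1, against 116 and 153 with DMSO, and fell by 0.35 on the relative scale (limma adjusted p = 0.00887). That call was lost without DMSO replicate 2 (limma adjusted p = 0.0514).

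Of the genes that rose with THZ1 on the relative scale, the H3 gene H3C7 had 47.8 and 64.9 with THZ1, against 39.5 and 46.0 with DMSO. Both THZ1 arrays were the higher ones, with a relative log2 change of 0.49 (SE 0.09, limma adjusted p = 0.00272). H2BC12 had 2386 and 3138 with THZ1, against 2275 and 2549 with DMSO, and the H4 gene H4C12 had 197 and 280 with THZ1, against 202 and 230 with DMSO. Their deposited signals overlapped, and their relative changes were 0.38 for H2BC12 (limma adjusted p = 0.00528) and 0.32 for H4C12 (limma adjusted p = 0.00811). The call of H2BC12 was lost after quantile normalization (0.17, limma adjusted p = 0.108), that of H4C12 without DMSO replicate 2 (limma adjusted p = 0.0619), and both without the signal filter (limma adjusted p = 0.0741 and 0.149).

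H2AZ1 had 9544 and 11481 with THZ1, against 9313 and 11088 with DMSO, and H2AZ2 had 3311 and 4222 with THZ1, against 3042 and 3780 with DMSO. Signals of both genes overlapped between the groups on the deposited scale. The relative change of H2AZ2 was 0.34 (limma adjusted p = 0.00393), which was not called after quantile normalization (0.10, limma adjusted p = 0.227) or without _x_at and _s_at probe sets (0.18, limma adjusted p = 0.147). Of its 4 other probe sets 3 had the same sign and 1 had a relative change of -0.0019. The relative change of H2AZ1 was 0.24 (limma adjusted p = 0.0326) but -0.0012 after quantile normalization. The call of H2AZ1 was also lost without DMSO replicate 1, DMSO replicate 2 or THZ1 replicate 1 (limma adjusted p = 0.0775, 0.132 and 0.172). Neither gene stood outside the 10th to 90th percentile of genes of like signal.

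The THZ1 and siMITF comparisons use separate controls, and the difference between their changes was tested in the same limma fit. On the relative scale the THZ1 change was below the siMITF change for 7 histone genes, beside 20.2% of all tested genes, and above it for 5, beside 21.4% of all. The 7 were H2BC5, H3C4, H2AC11, H2AC6, H2BC21, H4C8 and H1-2, all clustered, and the 5 were H2AZ2, H2AZ1, MACROH2A1, H4C3 and H2AX. For H2BC5 the relative log2 change was 0.11 with THZ1 (limma adjusted p = 0.277) and 1.82 with siMITF, a difference of -1.71 (limma adjusted p = 1.06e-05). On the deposited scale the difference was called for 3 genes, H2BC5 (-1.28), H2AZ1 (0.99) and H2AZ2 (1.16), beside 10.8% of all tested genes. That count varied with the array left out, and the share called over all tested genes in those fits is not given here.

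Genes that make and place histones were counted on the relative scale in lists drawn up with earlier results of these data known. Of 22 tested genes for histone mRNA synthesis and 3′ end processing, 9 fell and 0 rose with THZ1, beside 21.1% and 17.7% of all genes, and 9 fell and 3 rose with siMITF, beside 24.7% and 19.5% of all. NPAT, the coactivator of clustered histone genes, had 93.5 and 122 with THZ1, against 219 and 297 with DMSO, and fell by 0.95 (limma adjusted p = 1.92e-05). CASP8AP2, a protein of the histone locus body, had 49.95 and 46.2 with THZ1, against 237 and 224 with DMSO, and fell by 1.75 (limma adjusted p = 3.21e-05). In both genes every THZ1 array was far below the DMSO arrays. The clustered histone genes had 0 called falls with THZ1 on either scale, beside 10% of all tested genes on the deposited and 21.1% on the relative scale. H4C3 was called lower after quantile normalization (-0.24, limma adjusted p = 0.0193). A link between NPAT or CASP8AP2 and the clustered genes was not tested. Signals of the clustered genes report only the transcripts that the oligo(dT) priming reached. SLBP had 444 and 337 with siMITF, against 796 and 1077 with siCtrl, and fell by 0.59 (limma adjusted p = 3.78e-04). WDR33, of the polyadenylation complex, and CCNE2, a cyclin E, also fell with THZ1, by 0.67 and 0.66. CDK2, the kinase that acts with cyclin E, CCNE2 and the histone mRNA exonuclease ERI1 fell with siMITF, by 0.87, 0.62 and 0.59.

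Of 24 histone chaperone and deposition genes, 9 fell and 4 rose with THZ1, beside 21.1% and 17.7% of all genes, and 12 fell and 2 rose with siMITF, beside 24.7% and 19.5% of all. CENPA, the centromeric H3 variant, had 221 and 306 with THZ1, against 804 and 1060 with DMSO, and fell by 1.56 (limma adjusted p = 1.80e-06). With siMITF it had 339 and 275, against 762 and 954 with siCtrl, and fell by 0.80 (limma adjusted p = 4.31e-05). Neither comparison showed overlap between its groups. CHAF1A, ASF1B and VPS72 fell with THZ1, by 0.79, 0.88 and 0.65, and CHAF1B, HAT1 and HJURP fell with siMITF, by 0.68, 0.62 and 0.82. CHAF1A and CHAF1B are subunits of the chaperone CAF-1, and HJURP is the chaperone of CENPA.

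All 22 tested S phase genes fell with siMITF on the relative scale, beside 24.7% of all genes, with a median log2 change of -0.76, beside 0.0014 over all. With THZ1 8 fell and 0 rose, beside 21.1% and 17.7% of all genes, with a median of -0.15, beside 0.04 over all. Over the brightest quintile of tested genes the median was -0.21 with siMITF and 0.17 with THZ1. The genes of these lists were not set against genes of like signal. PRIM1, a primase subunit, CDC45, a helicase cofactor, CCNA2, cyclin A2, and TK1, thymidine kinase, fell with siMITF by 1.02, 1.003, 0.96 and 0.90. CDT1, GINS1, CDC6 and PRIM1 fell with THZ1 by 0.96, 1.05, 0.61 and 0.65. These falls and the rises of H2BC5, H3C4 and the other clustered histone genes were measured on the same siMITF arrays, and the part of cell cycle position in the histone signals was not tested.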

How the data were processed

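Affymetrix arrays of SK-MEL-5 cells in 4 groups of 2 were analysed. The authors deposited linear probe-set signals (intensity), made with MAS5 per the submitters' processing notes. The series' design text calls them normalized by cell number, by a calculation not given in the sources used here. ERCC spike-in signals had array medians of 50.6 and 53.9 with THZ1, against 48.0 and 53.7 with DMSO, and 27.6 and 30.8 with siMITF, against 28.5 and 28.7 with siCtrl, so no level is compared between the drug and the siRNA arrays. The number of arrays limits the precision.

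Probe sets were named from the platform annotation, and the gene IDs of 45214 probe sets matched the RefSeq gene table for GRCh38.p14, whose synonyms gave the clustered genes through their older names. Only the 45284 probe sets with 1 symbol were used, and the antisense symbol H1-10-AS1 was left out. Signals were taken as log2(signal + 16). Genes at or above the 40th percentile of mean log2 signal were fitted in R 4.3.3 (limma 3.58.1), all 8 arrays sharing the variance estimate, with Benjamini-Hochberg adjustment over 11946 genes. On the deposited scale limma's prior gave every gene the same SE, and because arrays differ by a shared offset, tests of different genes there are not independent. The relative scale subtracts from each array the median deviation of the tested genes from their means. The fit was tested on simulated data.

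Values per array are given for the variants and for up to 8 largest called rises and falls per comparison on the relative scale with both arrays on 1 side of the control arrays, and for up to 4 genes with the lowest adjusted p in each partner list. Other members are named after their values were seen. The members and lists were chosen with earlier results of these data known. Deviations of arrays with the same replicate number correlated at 0.112 for THZ1 and DMSO and -0.184 for siMITF and siCtrl, and the labels do not say that the numbers mark pairs, so no block was used. Alternatives were other pseudocounts, filters, probe-set rules, quantile normalization, each gene's own variance, a replicate block, a stricter threshold and leaving out each array.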

Additional observations from a re-analysis of the deposited data

Results flagged for a closer look

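The results below are differences between the THZ1 change and the siMITF change that passed the limma test of the difference itself, each on the log2 scale as THZ1 change minus siMITF change. On the deposited scale the difference was 1.16 for H2AZ2, 0.99 for H2AZ1 and -1.28 for H2BC5. On the relative scale 7 histone genes had called negative differences, beside 20.2% of all tested genes. They were -1.71 for H2BC5, -1.30 for H3C4, -1.05 for H2AC11, -0.87 for H2AC6, -0.65 for H2BC21, -0.58 for H4C8 and -0.49 for H1-2. The pseudogene H1-9P, which fell with THZ1, had a difference of -0.47. Positive differences on the relative scale were called for 5 histone genes, beside 21.4% of all tested genes. They were 0.73 for H2AZ2, 0.56 for H2AZ1, 0.47 for MACROH2A1, 0.42 for H4C3 and 0.30 for H2AX. The siMITF change is subtracted in each difference. A gene that rose with siMITF therefore tends toward a negative difference, and a gene that fell toward a positive one. The drug and siRNA arrays differ in agent and in control, which cannot be told apart here.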

How the results depend on the processing

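Counts of called histone genes on the relative scale were, on leaving out 1 array, 5 to 7 for THZ1 (6 with all arrays), 13 to 17 for siMITF (16) and 10 to 12 for the difference (12). Without the signal filter siMITF gave 32 of 72, and without _x_at and _s_at probe sets it gave 9 of 14 and the difference 6 of 14. On the deposited scale THZ1 gave 1 with a pseudocount of 64, 7 after quantile normalization and 0 to 1 on leaving out an array, against 0. For siMITF (15) the count was 0 with each gene's own variance, 9 without _x_at and _s_at probe sets and 7 to 13 on leaving out an array, and quantile normalization gave 16 with 6 lower and 10 higher, in place of 13 and 2. For the difference (3) it was 5 with a pseudocount of 64, 6 with the mean of probe sets, 13 after quantile normalization, 0 with own variance, 1 at an adjusted p under 0.01 and 0 to 10 on leaving out an array. With own variance, 0 of all tested genes were called on the deposited scale in any comparison. For the other settings, here and below, the share called over all tested genes is not given. These counts thus do not show whether histone genes moved more than other genes. Quantile normalization gives every array the same distribution of signals, so it does not keep the deposited levels. Its fit is the same for both scales, and its counts are not counts on the deposited scale. Beside the deposited siMITF changes of H1-10 and H4C12 it gave the opposite sign (0.15 and 0.18). It also turned the relative THZ1 change of H2AZ1 (-0.0012). The mean of probe sets turned the relative siMITF change of H2AC20 (0.0347), and the cause was not tested.

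With a replicate block the counts on the deposited scale were 0 for THZ1, 16 for siMITF and 6 for the difference, and on the relative scale 7, 16 and 11. Crossed numbers in the siRNA arrays, a pairing chosen after seeing the data, gave 21 for siMITF and 18 for the difference on the deposited scale, and 17 and 13 on the relative scale. Calls of single genes against their control were followed only for tested genes whose values per array are given above. Among these calls, 9 were lost on leaving out at least 1 array, 13 with own variance and 8 after quantile normalization. With siMITF, the deposited calls of H1-4, H1-8, H2AC25 and H3C8 and the relative calls of H4C5 and H2BC6 were not among them. Over all tested histone genes these counts are thus lower bounds. Low signal limits the dim genes: 8 of the 26 lie in the dimmest quintile of tested genes.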

Other observations

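Probe sets that name more than 1 gene were left out of all counts. The 3 probe sets shared by H3-3A, a second gene for H3.3, and H3P6 had relative log2 changes of 0.19 to 0.30 with siMITF, and 1 of them read 2944 and 2526 in the siMITF group, against 3100 and 3793 in the siCtrl group. The probe set of H3-3A alone had a mean log2(signal + 16) of 4.58, below the filter. The probe sets shared by H2AC18 and H2AC19, both H2A genes, had relative changes of 0.72 with siMITF, with signals of 374 and 288 with siMITF, against 275 and 342 with siCtrl, on 1 of them. MACROH2A2 and H2AJ, variants below the filter, had relative changes of 0.80 and 0.59 with siMITF and were not tested. MACROH2A2 had a signal of 39.0 and 28.1 with siMITF, against 29.1 and 26.6 with siCtrl, and H2AJ had 40.4 and 32.1 with siMITF, against 37.6 and 38.1 with siCtrl.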
